A study of Homo sapiens with 6 samples.

Results

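Stretches of the genome that were missing from the contact map of a single cancer cell line were collected from Hi-C maps of 4 lines. Hi-C counts pairs of genomic segments that lie close together in the nucleus, and the maps list such contacts between bins of 40 kb on hg19. A bin of chromosomes 1 to 22 was a member when it had no listed pair in 1 of the 4 maps while, in each of the other 3, its number of listed pairs within the chromosome was at least 0.25 of the median of that map. This rule found 1859 of 72036 autosomal bins (2.58%, or 74.36 Mb). A further 5692 bins were unlisted in all 4 maps, and 62738 were listed in all 4. SW480 and SNU-C1 are lines of colorectal adenocarcinoma, HCC1954 is a breast cancer line and OE33 is a line of esophageal adenocarcinoma. Each line entered with 1 map, so differences between lines have no replicate check and no test, and SW480 replicates 1 and 2, which are pooled in the SW480 map, gave the only spread between replicates. The labels name no treatment of the lines, and contact maps hold no expression values against which the cell types could be checked. Because the members were chosen by their listed pairs in these maps, their absence from a line is a description and not a result.

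When a segment is deleted from every copy of a chromosome, no read pair can come from it, and the segments on its sides become neighbours on the DNA and touch more often. Large genes at common fragile sites, which replicate late and break when replication is slowed, are places where cancer genomes often carry such internal deletions. Iterative correction needs enough reads in each bin, so a bin with few reads can also be left out of a corrected map without being lost from the genome. Contact between the edges of a missing stretch and the coverage beside it are therefore described with each stretch.

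Coding exons of CCSER1 and FHIT lay in missing stretches that began and ended inside the gene, and their sequences are shown because they are what the map of the line lacks. They were read from the GRCh37 assembly, on the strand of the gene, with coding bases in capitals and 10 bases of each flanking intron in lower case, and FHIT is shown from its start codon. Exons are numbered as in the canonical GENCODE transcript. Exons 6 to 10 of CCSER1, which encodes a coiled-coil serine-rich protein, lay in bins missing from SW480. With the 10 intron bases on each side included, the printed sequences span chr4:91549166-91549393, chr4:91645055-91645152, chr4:91736903-91737006, chr4:91844511-91844608 and chr4:92007091-92007155 on the plus strand. These 5 exons hold 493 coding bases, which leaves a remainder of 1 after division by 3. The coding bases of exon 5 of FHIT, which encodes a hydrolase of diadenosine polyphosphates, span chr3:60522583-60522695 on the minus strand together with the 10 printed intron bases. They lay in a stretch that was unlisted in both OE33 and SW480 and that continues the run of OE33. That exon opens the coding sequence, and its 103 coding bases leave a remainder of 1.
CCSER1 exon 6: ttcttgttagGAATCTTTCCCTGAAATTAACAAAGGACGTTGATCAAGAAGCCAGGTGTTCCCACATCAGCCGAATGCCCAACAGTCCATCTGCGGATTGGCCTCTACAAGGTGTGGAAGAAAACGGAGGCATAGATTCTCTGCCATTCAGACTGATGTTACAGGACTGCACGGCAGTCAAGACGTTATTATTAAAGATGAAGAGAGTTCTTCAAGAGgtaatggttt
CCSER1 exon 7: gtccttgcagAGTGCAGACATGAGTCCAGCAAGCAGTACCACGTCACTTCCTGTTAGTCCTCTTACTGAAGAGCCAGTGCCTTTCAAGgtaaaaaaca
CCSER1 exon 8: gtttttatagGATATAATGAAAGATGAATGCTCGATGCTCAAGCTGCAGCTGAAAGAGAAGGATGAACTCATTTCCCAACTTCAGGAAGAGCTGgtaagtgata
CCSER1 exon 9: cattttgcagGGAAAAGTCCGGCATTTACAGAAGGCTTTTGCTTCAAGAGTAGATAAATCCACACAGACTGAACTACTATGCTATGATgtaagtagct
CCSER1 exon 10: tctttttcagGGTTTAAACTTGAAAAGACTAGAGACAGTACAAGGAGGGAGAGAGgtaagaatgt
FHIT exon 5: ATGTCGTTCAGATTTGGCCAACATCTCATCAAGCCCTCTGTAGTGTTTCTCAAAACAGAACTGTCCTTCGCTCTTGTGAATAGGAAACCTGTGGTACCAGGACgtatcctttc

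The number of missing bins differed between lines. SW480 had 157 members (0.218% of autosomal bins), SNU-C1 had 337 (0.468%), HCC1954 had 607 (0.843%) and OE33 had 758 (1.05%). Members of SW480 and OE33 were mostly consecutive, with 96.2% and 82.7% in runs of 3 or more, against 48.1% in SNU-C1 and 43.3% in HCC1954. SW480 had 8 such runs, SNU-C1 18, HCC1954 60 and OE33 36, which makes 122 runs with 1203 bins. They covered 25.08 Mb in OE33, 10.52 Mb in HCC1954, 6.48 Mb in SNU-C1 and 6.04 Mb in SW480. The longest run had 133 bins in OE33, 87 in SW480, 65 in SNU-C1 and 12 in HCC1954, and the median run had 8, 9, 4 and 4. Single bins were most frequent in HCC1954, with 244, against 4 in SW480, 131 in SNU-C1 and 93 in OE33. At the threshold of 0.25, the lowest share among members was 0.25 for both SNU-C1 and HCC1954, 0.272 for OE33 and 0.343 for SW480. Just outside it, the highest share was 0.246 for SNU-C1, 0.215 for OE33 and 0.249 for HCC1954. No bin of SW480 lay just outside it.

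**Figure D1:**
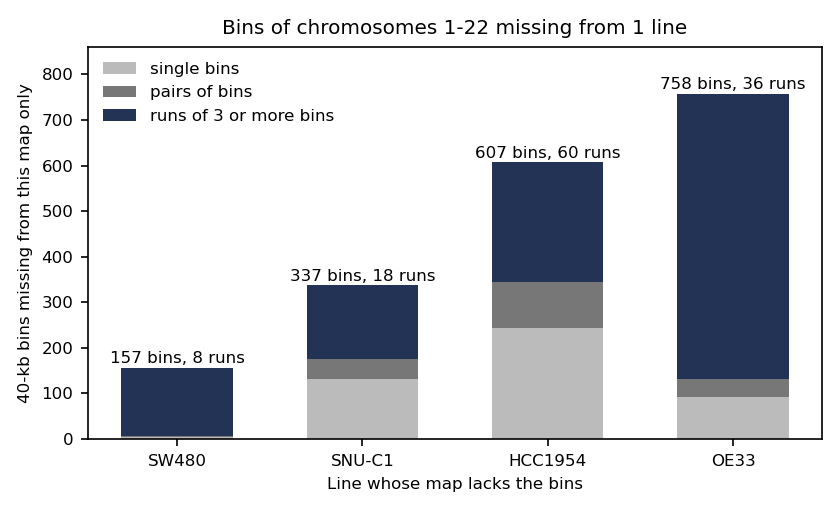
Number of 40-kb bins of chromosomes 1 to 22 that were missing from each line only, stacked by whether they stood alone, in pairs or in runs of 3 or more. Bars reach 157, 337, 607 and 758 bins, and the runs make up most of the bars of SW480 and OE33.

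The maps differed in depth and in how few reads a listed bin could have. Read pairs within chromosomes, recovered from the corrected values, came to 133401909 for SW480, 115014683 for SNU-C1, 89418779 for OE33 and 93500229 for HCC1954. Coverage is given as the read pairs of a bin over the median of the map and counts pairs within chromosomes unless stated. The lowest coverage of a listed bin was 0.0207 in SW480, 0.0230 in OE33, 0.0514 in SNU-C1 and 0.0698 in HCC1954. Pairs between chromosomes made up 0.263% of the read pairs of SW480 and 14.8% to 36.6% of those of the other 3 lines. When they were counted too, the lowest coverage was 0.0218 in SW480, where they could hardly change it. In the other 3 lines it was 0.148 to 0.168, so the value of SW480 is not on a like scale. A missing bin may therefore hold some reads, and absence from every cell and low coverage cannot be told apart from the listing alone. All 157 members of SW480 were also unlisted in both of its replicates, and all 1702 members of the other lines were listed in both. Because the SW480 map that chose the members pools these replicates, neither count is an independent check.

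Edge contact could be measured for 97 of the 122 runs, which had 95 distinct pairs of edges because neighbouring runs of HCC1954 shared theirs in 2 cases. It was taken as the mean corrected contact of the 3 nearest usable bins on the left with the 3 nearest on the right over the mean of the same map at the same distances (O/E). A run was called joined when this O/E reached 1.5 times that of every other line and rested on at least 10 read pairs. In SW480 2 of 6 runs were joined, against 2.3% of all windows of the same lengths. Windows of each run length were pooled, and the share rose with length. In SW480 it was 1.28% at 3 bins, the length of both joined runs, and 5.07% at 87 bins. In SNU-C1 it was 0.394% at 3 bins and 5.16% at 65 bins. The counts were 7 of 13 in SNU-C1 against 1.44% of windows, 20 of 52 in HCC1954 (50 distinct pairs of edges) against 0.62%, and 21 of 26 in OE33 against 2.72%. These shares were above those of the windows. Many runs lie close together, however, and neighbouring runs are not separate events. Chromosome 13 held 25 of the 36 runs of OE33, chromosome 5 held 6 of the 18 of SNU-C1, and chromosome 8 held 18 of the 60 of HCC1954. The shares therefore rest on fewer regions than runs. When read pairs were used without correction for coverage, 1 run of SNU-C1 and no run of the other 3 lines was joined. Such values fall with the coverage of both edges, and the median coverage of the poorer edge was 0.225. The low count without correction therefore cannot show that joins are absent. Further, 88 of the 97 runs had an edge with coverage below 0.4 of the map median, and contacts among the bins around such edges were high as a whole. For pairs 80 kb to 1 Mb apart near those 88 runs, the median O/E was 1.47 in the line that lacked the run and 0.98 in the others, while near the 9 runs with better covered edges it was 1.05 and 1.01. The part of this local rise in the calls was not tested. When each O/E was divided by that local O/E first, 19 runs were joined: 1 in SW480 against 1.16% of windows, 2 in SNU-C1 against 1.29%, 7 in HCC1954 against 0.505%, and 9 in OE33 against 2.53%. The joined runs of both measures shared 17. Among the 9 runs with edges at 0.4 or more, 5 were joined and 7 were joined over the local O/E, whereas 45 and 12 of the other 88 were. The class of 0.4 was set after the values were seen, and the coverages nearest to it were 0.398 and 0.43. Between SW480 replicates the edge O/E at 91 runs of other lines differed by a median ratio of 1.09 and by at most 1.90, with 4 runs at 1.5 or more. Runs of SW480 itself were left out, so this spread does not measure the replicate error at poorly covered edges. Replicate values at such edges of SW480 are given below for 17q21, with their limit.

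**Figure D2:**
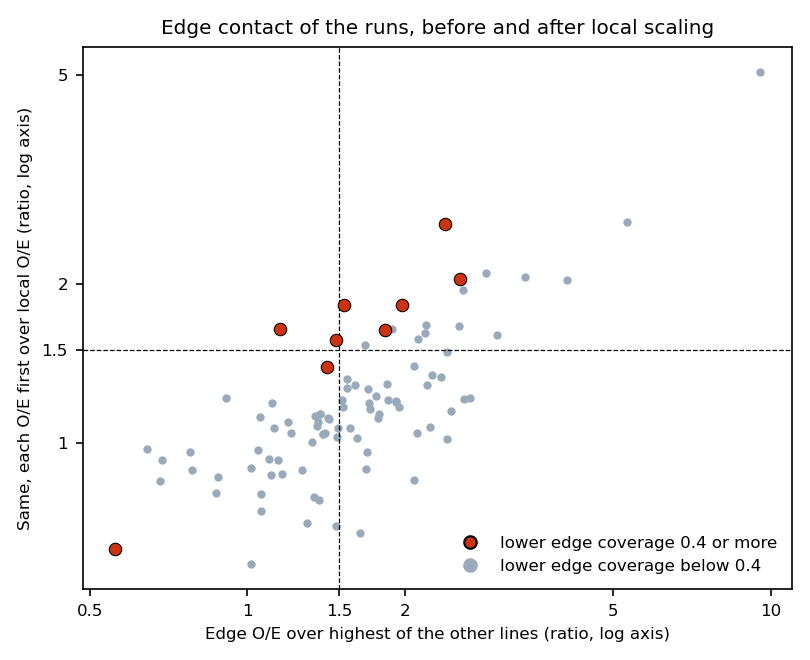
Edge O/E of the line that lacks a run over the highest of the other 3 lines (horizontal axis, ratio, log axis), and the same after each O/E was divided by its local O/E (vertical axis, ratio, log axis). Each point is 1 of 96 runs, 1 run with a ratio of 0 is not drawn, and dashed lines mark 1.5. Red points, with both edges at 0.4 of the median coverage or more, lie above the upper line in 7 of 9 cases, while most grey points fall below it.

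The 9 runs with well covered edges had 3 to 16 bins, and 6 of them lay wholly inside 1 gene. Of those genes, 5, CCSER1, RBFOX1, MACROD2, FHIT and WWOX, are on the list of large genes at common fragile sites. Over all 122 runs, 27 lay inside 1 gene. The share of all autosomal bins that lie in list genes was not computed. Both the class of 0.4 and the list were set with values of these maps known, so this overlap is a description and no test. In each of the 9, the other 3 lines carried reads throughout the run, as the rule for members requires. The 3 nearest usable bins on each side in the line itself had a coverage of at least 0.43 of the median, which follows from the class of 0.4. At a position inside CCSER1 on 4q22 the run of SW480 took 16 bins, from 91.40 to 92.04 Mb. Left and right of it, coverage in SW480 was 0.991 and 0.575, and coverage of the run in the other lines was 0.683 in OE33, 0.849 in SNU-C1 and 1.19 in HCC1954. The O/E between its edges was 3.14 in SW480 on 337 read pairs (95% Poisson interval 302 to 375, for counting error only), 2.72 in HCC1954, 2.46 in OE33 and 2.24 in SNU-C1. All 4 lines were thus above the mean at that distance, and the ratio of SW480 to the highest of the others, 1.16, was below 1.5. Taking the missing bins out of a chromosome would have raised the mean contact 7.49 times at the shorter distance. Local contacts in SW480 were low here, with a local O/E of 0.696 against 1.08, 1.05 and 0.896. Over them the edge contact was 4.52 in SW480, 4.88 in its replicate 1 and 4.20 in its replicate 2, against 2.07, 2.58 and 2.75, a ratio of 1.65.

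FHIT and WWOX, large genes at the fragile sites of 3p14 and 16q23, each held a run of OE33. The run in FHIT had 7 bins, from 60.12 to 60.40 Mb, within 12 unlisted bins that reached 60.60 Mb. SW480 lacked the last 5 of these bins as well, from 60.40 to 60.60 Mb, so they are missing from both lines and are no members, and they hold the coding exon shown above. Edge O/E across the 12 bins was 3.79 in OE33 on 155 read pairs (132 to 181), against 1.92 in SW480, 1.48 in SNU-C1 and 1.18 in HCC1954, a ratio of 1.97. OE33 was higher than the other 3 lines, and SW480, whose own unlisted bins lie between these edges, was the next. WWOX encodes a WW domain oxidoreductase, and its run of 9 bins, from 78.52 to 78.88 Mb, lay in an intron. There the edge O/E was 2.66 in OE33 on 208 read pairs (181 to 238) and 0.892, 1.02 and 1.04 in SW480, SNU-C1 and HCC1954. This ratio of 2.55, or 2.05 over the local contacts, passed the limit on both measures, and the other 3 lines stayed close to the mean of their maps. Had the missing bins simply been taken out of a chromosome, mean contact at the shorter distance would have been 5.6 times higher at FHIT and 4.27 times higher at WWOX in the map of OE33. Without correction for coverage, which was 0.497 to 0.62 at these edges of OE33, the ratios turned to 0.588 at FHIT and 0.772 at WWOX.

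SNU-C1 had missing stretches in RBFOX1, MACROD2 and PRKG1. RBFOX1, which encodes a neuronal splicing regulator, lacked 4 bins on 16p13, from 6.60 to 6.76 Mb, and another bin at 6.84 Mb, with no coding base in them. Contact between the edges of the 4 bins had an O/E of 1.99 in SNU-C1 on 507 read pairs (464 to 553), against 0.403 in SW480, 0.836 in HCC1954 and 0.652 in OE33. The ratio to the highest of the other lines was 2.38, and it was 2.60 over the local contacts. The shorter distance would raise the mean contact of the map 2.54 times, and the O/E of 1.99 in SNU-C1 was below that. This was the only run of SNU-C1 that stayed joined when read pairs were used without correction. MACROD2, which encodes a hydrolase of mono-ADP-ribose, lacked 3 bins on 20p12 from 14.76 to 14.88 Mb and, to the right, 4 unlisted bins that end at 15.16 Mb, of which SW480 lacked the bin at 15.08 Mb. No coding base lay in either stretch. Between the edges of the 3 bins the O/E was 2.42 in SNU-C1 on 715 read pairs (664 to 769), and 1.49, 1.58 and 1.16 in SW480, HCC1954 and OE33. This ratio of 1.53 barely passed the limit, fell to 0.491 when only the nearest bin on each side was used, and to 0.593 without correction. PRKG1, which encodes a cGMP-dependent protein kinase, lacked 3 intronic bins on 10q, from 52.96 to 53.08 Mb. Its edge O/E was 2.18 in SNU-C1 on 511 read pairs (468 to 557), against 1.18, 1.54 and 1.14 in SW480, HCC1954 and OE33, and the ratio of 1.42 was not joined.

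The remaining 3 runs with well covered edges were not inside a gene. On 12q21, 3 bins of OE33 from 76.52 to 76.64 Mb, without a protein-coding gene, were missing between edges with coverage of 1.26 and 1.10, and no other run had a higher value at its poorer edge. The O/E was 2.42 in OE33 on 1024 read pairs (962 to 1089), 1.64 in SW480, 1.58 in SNU-C1 and 1.33 in HCC1954, a ratio of 1.48 that passed the limit over local contacts with 1.56. On 18q12, 4 bins of OE33 from 37.00 to 37.16 Mb, also without a protein-coding gene, gave 1.85 in OE33 on 194 read pairs (168 to 223), against 0.697, 0.819 and 1.01 in SW480, SNU-C1 and HCC1954. Both runs of OE33 thus had more edge contact than the other 3 lines, and the ratio at 18q12 was 1.83 (0.648 without correction). The exception was on 2q21 in SNU-C1, where 6 bins from 132.24 to 132.48 Mb with CCDC74A lay within 20 unlisted bins. Its edge O/E was 0.581 in SNU-C1, against 1.04 in SW480, 0.474 in HCC1954 and 0.476 in OE33, a ratio of 0.558, and the other lines also had low coverage there (0.297 to 0.567).

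**Figure D3:**
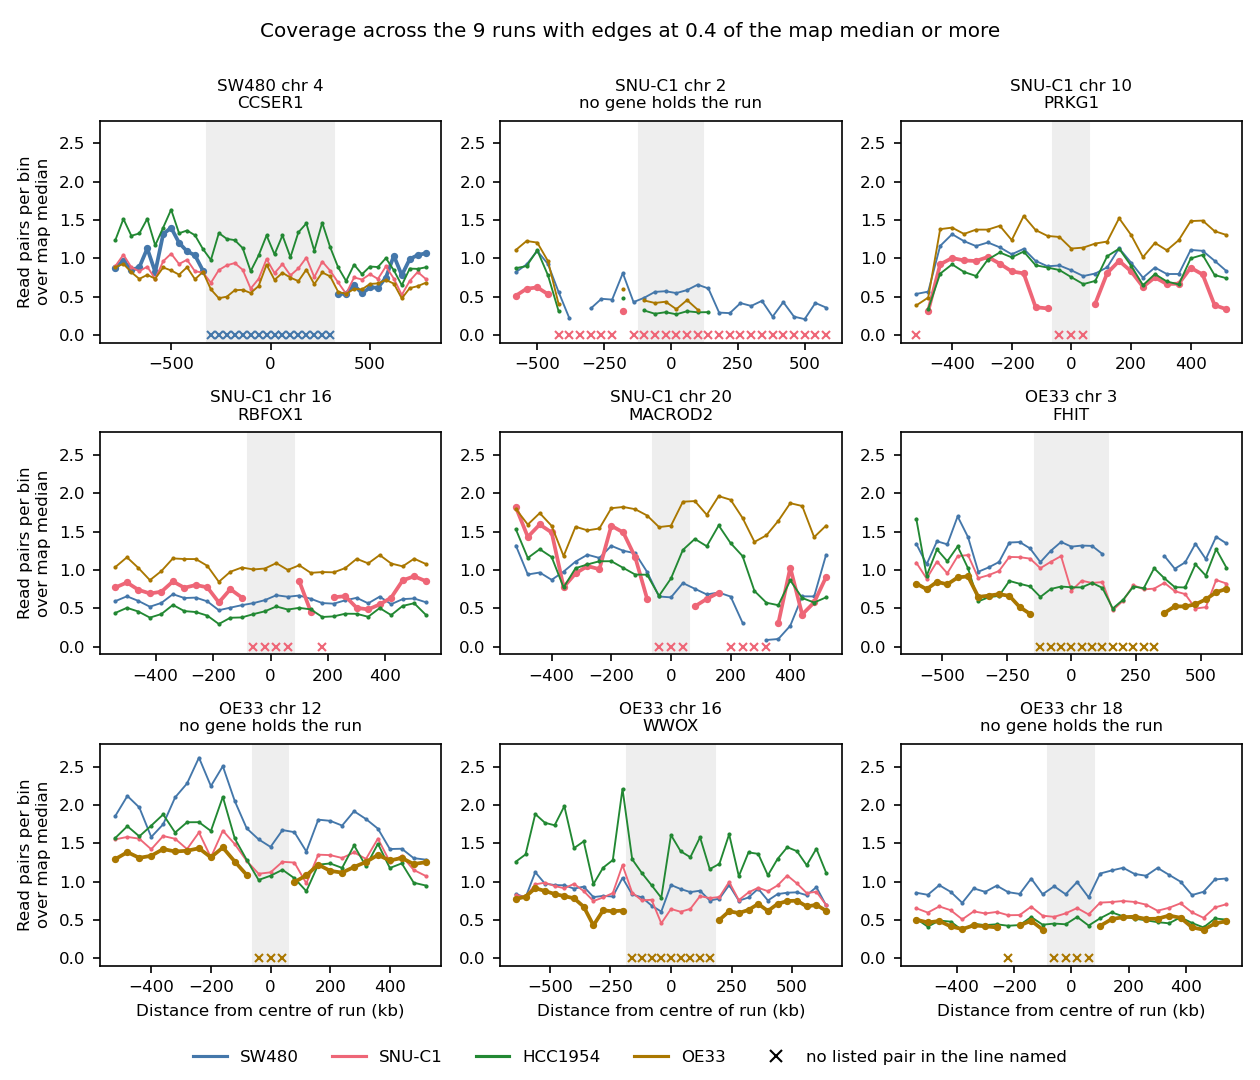
Read pairs per 40-kb bin over the median of the map (vertical axis, ratio) against distance from the centre of the run in kb, for the 9 runs with edges at 0.4 or more. Each line is a cell line, the thick one lacks the run, crosses at 0 mark its bins without a listed pair, and grey shading marks the run. Unlisted bins extend the gap on both sides on chromosome 2 and on 1 side at FHIT, and further unlisted bins follow to the right at RBFOX1 and MACROD2. The level of the thick line can differ between the sides of a run, as at CCSER1 (0.991 and 0.575) and MACROD2 (1.09 and 0.617). The other lines pass through the run, as the rule for members requires.

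**Figure D4:**
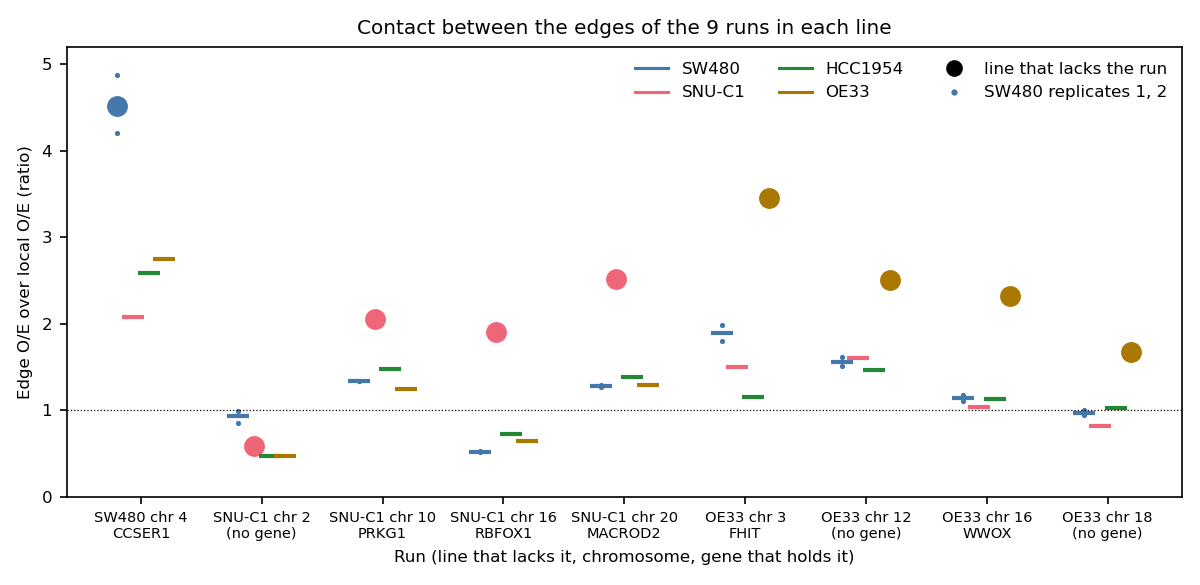
Contact between the edges of the same 9 runs, as the edge O/E divided by the local O/E (vertical axis, ratio), in each line. Large circles are the line that lacks the run, bars are the other 3 lines, and small dots are SW480 replicates 1 and 2. Among the maps of the 4 lines, the circle is the highest value in 8 of 9 runs, from 1.68 at 18q12 to 4.52 at CCSER1, and lies at 0.587, below SW480, on chromosome 2.

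On 5q of SNU-C1, the longest run of that line did not join its own edges but lay where 2 long-range contacts overlap. This run had 65 bins, from 113.04 to 115.64 Mb, and held KCNN2, a calcium-activated potassium channel, PGGT1B, a subunit of a protein prenyltransferase, and AP3S1, a subunit of a vesicle adaptor complex, whole. No read pair linked its edges in SNU-C1 (upper limit 3.69), whereas 32 did in SW480, 15 in HCC1954 and 23 in OE33. Coverage of SNU-C1 stepped down and up around it: 1.03 in the 1 Mb up to 109.24 Mb, 0.268 from there to the run with 52 of 95 bins listed, 0.639 from the run to 119.64 Mb, and 0.95 in the next 1 Mb. SW480, HCC1954 and OE33 listed every one of these bins. The first step coincided with a contact of the bin at 109.20 Mb in MAN2A1, a mannosidase of the Golgi, with the bin at 115.68 Mb in COMMD10, at an O/E of 151 on 111 read pairs (91.3 to 134), against 0 read pairs in SW480, 0 in HCC1954 and 3 in OE33. The bin at 113.00 Mb, at the left edge of the run, met the bin at 119.64 Mb with an O/E of 247 on 66 read pairs (51.0 to 84.0), against 0, 0 and 1. The run is the stretch that both contacts span. In the stretches that only 1 of them spans, coverage was 0.268 on the left, over its listed bins only, and 0.639 on the right. How these steps arose was not tested. Between 109.24 Mb and the run, there were 5 more runs of 3 to 7 bins, of which 3 overlapped TMEM232 or NREP. All 5 were joined, with ratios from 1.86 to 2.40, and none was joined over the local contacts. APC, the tumour suppressor of the colorectal epithelium, lies in the same stretch and is in no run. Its 4 bins were listed in SNU-C1 with a coverage of 0.375, against 1.57 in SW480, 2.46 in HCC1954 and 1.30 in OE33.

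The end of 7p was the other large loss of listed bins in SNU-C1. All 58 bins from 0 to 2.32 Mb were unlisted in SNU-C1, where SW480 listed 56, HCC1954 50 and OE33 56, and 48 of them formed 5 runs. MAD1L1, of the mitotic checkpoint, PDGFA, a growth factor, and PRKAR1B, a regulatory subunit of protein kinase A, lay in them. Since the stretch reaches the chromosome end there was no left edge, and edge contact was not measured. Coverage of SNU-C1 was 0.557 in the 400 kb to the right and 1.06 in the following 1 Mb. The bin at 2.36 Mb, which holds SNX8 and EIF3B, was in contact with a bin of chromosome 20 at 35.52 Mb, which holds TLDC2 and SAMHD1, on 275 read pairs (243 to 309), against 0 in HCC1954 and 1 in OE33. SW480 could not be compared between chromosomes. Coverage of SNU-C1 on chromosome 20 was 1.07 in the 1 Mb left of that partner and 2.03 in the 1 Mb right of it.

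**Figure D5:**
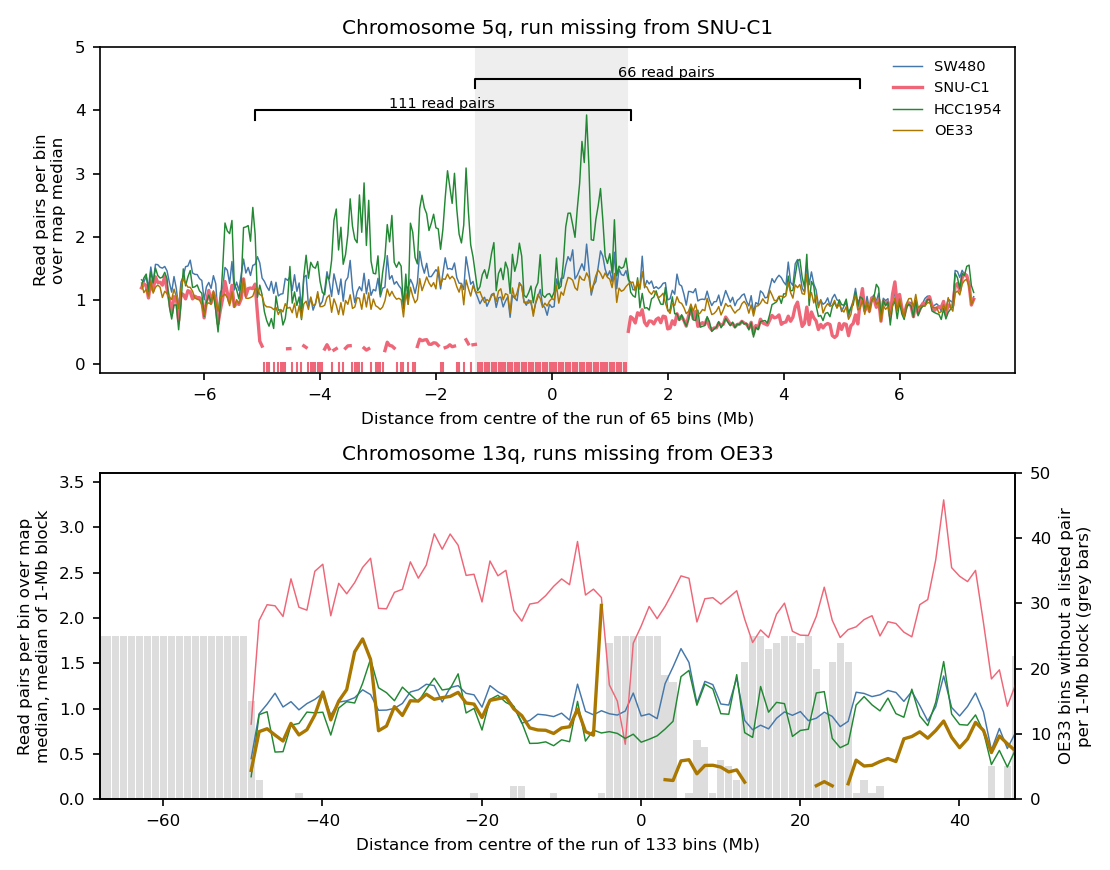
Upper panel: read pairs per bin over the map median on 5q against distance from the centre of the run of 65 bins in Mb, with unlisted bins of SNU-C1 as ticks, the run in grey and the 2 long-range contacts of SNU-C1, with 111 and 66 read pairs, as brackets. Lower panel: the same coverage as medians of 1-Mb blocks on 13q around the run of 133 bins, with grey bars (right axis) for the number of unlisted bins of OE33 per block. Coverage of OE33 is 0.705 in the block that starts at 62 Mb and 2.10 in the 1 Mb left of the first run. Listed bins between the first and the last run have a median of 0.323.

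In OE33, 25 of the 36 runs and 562 of the 758 members lay on 13q. Coverage was 2.10 in the 1 Mb left of the first run at 63.96 Mb, and between there and 95.04 Mb only 215 of 777 bins were listed, at a coverage of 0.323. The value of 2.10 was a local high, as the 1-Mb blocks that start at 61 and 62 Mb had 0.746 and 0.705. The other lines listed 774, 772 and 771 of these bins, at 0.962 in SW480, 1.96 in SNU-C1 and 0.812 in HCC1954. In the 1 Mb to the right of the last run, coverage of OE33 was 0.429. It was still 0.415 in the block that starts at 100 Mb and rose to 0.665 in the one at 101 Mb. The longest run of the series, 133 bins from 65.80 to 71.12 Mb, contained PCDH9, a protocadherin of neurons, and KLHL1 whole, and 3 read pairs linked the edges of the unlisted stretch around it, against 16 in SW480, 17 in SNU-C1 and 6 in HCC1954. After correction its edge O/E was 4.76 in OE33, higher than in the others, a ratio of 3.39 that was 2.06 over the local contacts, 0.214 without correction and 0 with only the nearest bin on each side. Further runs held SLITRK1, SLITRK5 and SLITRK6, transmembrane proteins of neurite growth, whole, and part of DACH1, a transcriptional regulator. The glypicans GPC5 and GPC6, heparan sulfate proteoglycans of the cell surface, lacked 34 of 38 and 26 of 31 bins in OE33. The run with the highest ratio, 64 bins from 81.64 to 84.20 Mb, had an edge O/E of 18.7 in OE33 against 1.61 in SW480, 1.57 in SNU-C1 and 1.96 in HCC1954, 9.52-fold over the highest of them. That value rested on 20 read pairs (12.2 to 30.9) between edges of coverage 0.171 and 0.106, and the ratio was 5.07 over the local contacts, 4.97 with only the nearest bin on each side and 0.399 without correction.

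A smaller field of the same kind lay on 4q in OE33. From 171.36 to 179.48 Mb, 113 of 203 bins were listed at a coverage of 0.376, against 0.712 in SW480, 0.671 in SNU-C1 and 1.08 in HCC1954, each with all 203 bins. It held 6 runs, of which 4 were joined and none over the local contacts, and 3 of them overlapped GALNTL6, of a family that starts O-linked glycans. The longest, 43 bins from 171.36 Mb, had the lowest ratio of OE33, 1.02 on 22 read pairs.

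Most of SW480's missing bins were on 6p, where 119 of its 157 members formed 3 runs across the major histocompatibility complex (MHC). Between 28.48 and 33.44 Mb, 3 of 124 bins were listed in SW480, at a coverage of 0.0633, against 122 in OE33, 123 in HCC1954 and 121 in SNU-C1, at 1.20, 1.02 and 0.849. These runs contained HLA-DMA and HLA-DPA1, of class II antigen presentation, TAP2, a peptide transporter, NOTCH4 and GABBR1. Coverage was 0.861 to the left and 0.553 to the right. The first run, of 87 bins, had a ratio of 1.84 on 4 read pairs and was not joined, and the ratio was 0.619 without replicate 1 and 0.809 without replicate 2. The 2 joined runs of the line were on 17q21, at 43.40 and 43.80 Mb, with CRHR1, a receptor of corticotropin-releasing hormone, and ARHGAP27. There 5 of 13 bins were listed at a coverage of 0.0716, and the ratios of 1.55 and 1.51 became 0.235 and 0.0528 without correction. Over the same edge bins, the O/E of 2.38 and 2.46 in the pooled map was 0 and 0.390 in replicate 1 of SW480. In replicate 2 it was 0.364 and 0.611, and the replicate values rested on 0 to 8 read pairs. A bin that a replicate does not list counts as 0 here. Of the bins listed in the pooled map, 134 were unlisted in replicate 1 and 138 in replicate 2. Whether edge bins on 17q21 were among them was not tested, so these values are no measure of replicate error. When edges were chosen again in each replicate, both runs were joined in replicate 1 alone, with 2.15, and neither in replicate 2 alone, with 1.07 and 1.32. On 4q13, a run at 69.20 Mb and a run at 69.64 Mb, the latter with UGT2B10 and UGT2A3, of steroid and drug glucuronidation, had ratios of 0.682 and 0.688. As background, these are places for which hg19 has alternative haplotype sequences beside the main chromosomes. Whether reads of SW480 were placed on such sequences was not tested.

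HCC1954 had the largest number of runs, 60, and none was longer than 12 bins. Of its 263 bins in runs, 50.2% lay within 5 Mb of a chromosome end and 28.1% had a GC content of at least 50%, against 6.39% and 6.85% of the bins listed in all 4 maps. In OE33 the same shares were 0 and 0, in SNU-C1 29.6% and 28.4%, and in SW480 0 and 17.9%. The other lines also had low coverage in the runs of HCC1954, with a median of 0.548 of their map medians, against 0.89 in the runs of OE33, 0.957 in those of SW480 and 1.01 in those of SNU-C1. At each of its 52 measured runs the poorer edge had a coverage below 0.4. The runs included 18 on chromosome 8, some of them in CSMD1 and DLGAP2, large genes of 8p with 24 and 17 members in runs or outside them. CSMD1 lacked bins in 10 separate stretches, and its 5 runs had ratios from 1.34 to 2.35, which were 0.778 to 1.33 over the local contacts. On chromosome 20, PAX1 and FOXA2, transcription factors of embryonic patterning and of endoderm, lay whole in runs whose coverage in the other lines was 1.14 and 1.62. The run with PAX1 was joined, at 1.68 on 83 read pairs, and remained so over local contacts with 1.53, but not without correction, and its edges had a coverage of 0.291 and 0.285. At the run with FOXA2 the ratio was 1.21 on 221 read pairs. The highest ratio of the line was on 12p at 30.28 Mb, 2.85 on 75 read pairs (59.0 to 94.0), and without correction it was 0.244. The lowest was 0.644 at 72.00 Mb of chromosome 7, in TYW1B.

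Across all runs, 316 protein-coding genes were overlapped, 248 of them whole. The MHC made SW480 the line with the most, 188, whereas HCC1954 had 69, SNU-C1 47 and OE33 12. No run overlapped a protein-coding gene in 38 cases, and 27 runs lay inside 1 gene. Of 61 listed tumour suppressors and 66 genes of common inherited deletions, none was in a run. FHIT and WWOX were not on the list of tumour suppressors used here. At the share of 1.64% among all protein-coding genes, few genes would be expected from lists of this size, so their absence is no result about them. Of 52 large genes at common fragile sites, 11 were overlapped by a run (21.2%), among them CCSER1 in SW480, RBFOX1 and MACROD2 in SNU-C1, CSMD1 and DLGAP2 in HCC1954, and FHIT, WWOX, PCDH9, GPC5 and GPC6 in OE33. Among all 19229 protein-coding genes the share was 1.64%. Among 264 genes of at least 0.5 Mb that are not on the list it was 1.89%, or 5 genes. The 11 list genes are not separate events, however. PCDH9, GPC5 and GPC6 lie in the same poorly covered stretch of OE33, and CSMD1 and DLGAP2 lie on the same chromosome arm in HCC1954. The share of 21.2% therefore rests on fewer regions than genes. Neighbouring genes, as in the MHC, also count separately in the share of 1.64%. No list gene had a run in more than 1 line. The rule leaves out bins that more than 1 line lacks, however, such as 5 bins in FHIT and 5 in DLGAP2 that were unlisted in 2 or 3 lines. LRP1B, ROBO2 and CDH12 had 1 member each and no run, and the other list genes, among them CNTNAP2, PTPRD, DLG2 and IMMP2L, had no member. The list was drawn up with earlier results of these maps known, so these shares describe the members and are no test.

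Edges of runs were also searched for partners elsewhere, at least 2 Mb away or on another chromosome, where the O/E reached 4 or more and exceeded every other line 4 times or more, with 0.5 added to each, on at least 10 read pairs. The same search was not run over other bins of the maps, so partners are described without counts per line, and between chromosomes SW480 could not be compared. Blocks with at least 100 read pairs were found at 4 edges, all of SNU-C1, and are the contacts on 5q and between chromosomes 7 and 20 given above. The best supported partners of the 5q edges had an O/E of 46.1 to 79.5 in those blocks, and of 21.3 to 48.7 without correction for coverage. In HCC1954, the partners on the same chromosome had an O/E of 6.75 to 13.1 that was 1.16 to 1.75 without correction. Its partners on another chromosome lay on chromosome 17 between 37.60 and 38.20 Mb, in blocks with a coverage of 34.1 to 53.7, on 10 to 28 read pairs. The best supported partner in OE33 linked the left edge of the run at 64.56 Mb of 13q, where coverage was 0.917, to a block at 56.60 Mb, with an O/E of 8.1 on 39 read pairs (27.7 to 53.3) against at most 1.44 in the other lines. Without correction it was 4.05. The partners of the other edges on 13q, with 7.31 to 13.5, had 0.734 to 2.33 without correction.

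Domain boundaries, taken as minima of the insulation score in the mean of the 3 lines that hold a run, fell in 23 runs. With a window of 1 Mb there were 8 boundaries in runs of SW480, 14 in those of OE33 and 5 each in those of SNU-C1 and HCC1954. Per 100 bins this was 5.30 for SW480, 2.23 for OE33, 3.09 for SNU-C1 and 1.90 for HCC1954, against 3.80, 3.64, 3.48 and 3.50 on the same chromosomes. At this window only SW480 was above its chromosomes, whereas with a window of 480 kb OE33 was too (4.47 against 4.42). SW480 had 5 of its 8 boundaries in the run of 87 bins at the MHC. Among the 9 runs with well covered edges, those in CCSER1 and RBFOX1 each held 1 boundary, and 3 boundaries lay in the run of 65 bins on 5q of SNU-C1.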

How the data were processed

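The authors prepared in situ Hi-C libraries from MboI-digested chromatin and used BWA-MEM (on hg19), Picard for duplicates and in-house pipelines with iterative correction. The deposited values are a signal: for each pair of 40-kb bins, a contact frequency after that correction. The 3 maps of SW480 were corrected within chromosomes, and those of the other lines over the genome. Tool versions and the treatment of poorly covered bins were not given in the sources used here. Replicates 1 and 2 of SW480 are pooled in its map without a replicate number.

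Read pairs were recovered by fitting bin factors in 45 iterations, from pairs 5 Mb or more apart, and 99.9% or more of the tested values came out whole within 0.02. Intervals are exact 95% Poisson intervals and cover counting error only. Python 3.11.15, NumPy 2.4.6, SciPy 1.17.1, numba 0.67.0 and Matplotlib 3.10.9 were used. Chromosome lengths of the GRCh37 reference equalled the ends of the last bins on all 22 autosomes, and genes came from GENCODE v44 lifted to GRCh37. Tested on simulated data with 1600 bins, 10 of 10 planted joined losses and 0 of 5 planted missing stretches without a join were called joined. No poorly covered edges and no local rise in contacts were planted, so the simulation does not show how the call behaves there.

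Genes were named when they were on the gene lists and overlapped a run, when they overlapped a joined run or one of the 10 longest (up to 5 by overlapped length), or when they lay in the run with the highest or lowest edge contact of a line. Genes outside this rule, such as APC, genes at distant partners and genes of other runs, were added once their values had been seen. The result for 1 gene of the lists is not reported here. The members and lists were chosen with earlier results of these data known. Alternatives changed the share of the median, the run length, the bins at each edge, the correction, the expected value, the call, the insulation window and the replicates of SW480.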

Additional observations from a re-analysis of the deposited data

How the results depend on the processing

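Few read pairs limit some ratios, with 4 at the MHC run of SW480 and 3 at the longest run of OE33. With 0.5 of the median in the rule, members were 207 in SNU-C1 and 334 in HCC1954, with 30 runs in HCC1954. Runs of 5 or more bins numbered 5, 7, 16 and 23 in SW480, SNU-C1, HCC1954 and OE33, and runs of 2 or more 40, 110 and 55 in the last 3. Joined runs of SW480, 2 as reported, became 0 with 5 by 5 bins, 0 at a limit of 2 times, and 0 to 2 when 1 of its replicates was left out. Read pairs without correction left 1 joined run in SNU-C1 and 0 in each of SW480, HCC1954 and OE33. Ratios without correction fall with the coverage of the edges, so they cannot show that a join is absent. At 2 times, HCC1954 kept 8 and OE33 11 joined runs, and at the lower limit tried HCC1954 had 37. Over the local contacts, a measure added after the data were seen, joined runs were 1, 2, 7 and 9, and with edges at 0.4 of the median or more, also added then, 0, 2, 0 and 3. Among the named joined runs, the ratio fell below 1 without correction at 43.40 and 43.80 Mb of chromosome 17 in SW480 (0.235 and 0.0528), at 111.28 Mb of chromosome 5 (0.155) and at MACROD2 (0.593) in SNU-C1, at 30.28 Mb of chromosome 12 in HCC1954 (0.244), and at FHIT (0.588), 81.64 Mb of chromosome 13 (0.399), WWOX (0.772) and 37.00 Mb of chromosome 18 (0.648) in OE33. With 1 bin on each side it fell below 1 at MACROD2 (0.491). Ratios of runs that were not joined also crossed 1. Without correction they were 0.388 at the MHC, 0.716 at PRKG1, 0.419 at 171.36 Mb of chromosome 4, 0.955 at 12q21 and 0.214 at 65.80 Mb of chromosome 13. With 1 bin on each side they were 0.373 at 171.36 Mb of chromosome 4, 0.992 at PRKG1 and 0 at 65.80 Mb of chromosome 13, and above 1 at both runs on 4q13 of SW480. The run at 171.36 Mb was also below 1 with 5 by 5 bins (0.847), against the mean of its own chromosome (0.962) and over the local contacts (0.587), and the MHC run when either replicate of SW480 was left out (0.619 and 0.809). An insulation window of 480 kb gave 8 boundaries in runs of HCC1954 and 28 in OE33. The causes of these changes were not tested. No paired analysis was possible because only SW480 has numbered replicates.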
